A study of Mus musculus with 8 samples.

Results

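Isolated N6-methyladenosine (m6A) sites are sites called as m6A with no other called site nearby on the same strand. They were chosen here as sites called in both control TBLC libraries, with a gene name, a mean control level of 0.3 to under 0.9 and no other site of either control list within 1000 nt of genomic sequence. In all, 1250 sites in 1203 genes met this rule, of 26572 sites with a gene name at the same levels (4.70%) and of 49554 sites called in both control lists. The other 25322 sites at these levels had at least 1 such neighbour and are called clustered. Levels came from GLORI, a chemical assay in which unmodified adenosine is deaminated and sequenced as G, while m6A stays A. The level of a site is its A reads divided by its A and G reads.

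Mouse cells of 2 kinds gave 8 libraries, 2 per group. TBLC grown in MYCP medium received an siRNA against Virma (siVirma) or a control siRNA (siNC). EPSC with a dCas13b-FTO system, which brings a demethylase to a transcript, carried a guide against Gata6 (sgGata6) or a control guide (sgCtrl). The labels do not expand the names TBLC, EPSC and MYCP, and separate cultures are not stated for the replicates. The p-values therefore cover library-to-library spread, part or all of which may be technical.

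Most m6A in mRNA is placed during transcription by a nuclear complex whose catalytic core is METTL3 and METTL14, with VIRMA as a large scaffold subunit. It falls mainly in long exons and near stop codons, where sites often lie close together. Exon junction complexes keep the writer away from the short exons between them. Other enzymes place N6-methylated adenosine elsewhere: PCIF1 at the first transcribed nucleotide beside the cap, and METTL16 in U6 small nuclear RNA. GLORI reads an adenosine that resists conversion as A and does not itself name the modification or the enzyme.

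The lists held 41082 and 34739 called sites in the siVirma libraries and 66350 and 61957 in the siNC libraries, with 2655963 to 4764955 A and G reads over those sites per library. The pooled EPSC table held 19342 sites. Gene coverage of Virma, as the lists give it, reached 24.0 and 22.8 in the siVirma libraries, against 40.3 and 38.2 in siNC. Of 24 naive pluripotency genes 23 had a called site in some TBLC library, and of 27 genes of the 2-cell stage program 14 did, while Dux and Tcstv1 were among those with none. The lists hold methylated sites and not expression, so a gene with none can still be expressed. The gene coverage of fibroblast (feeder) markers was higher in siVirma, with sums over the 12 markers that had a site in all 4 libraries of 771 and 634 in siVirma and 448 and 421 in siNC. In such bulk samples fewer cells of a type and less RNA per cell cannot be told apart, and the part of other cells in the results was not tested.

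The isolated sites were spread thinly over many genes. Of the 1203 genes, 1158 held 1 isolated site, 43 held 2, and Dop1a and Vps13b held 3 each. For 508 sites no other site of the gene was called in either siNC list, 485 lay in genes with 2 to 9 called sites, and 257 lay in genes with 10 or more. The distance to the nearest called site had a median of 11568 nt, with quartiles of 2764 and 59798 nt. Distances are genomic and count introns, so sites listed as isolated can be closer in the mRNA. The 2 members nearest to the threshold were in Krr1, a small-subunit ribosome assembly factor, at 1003 nt, and in Tmub1 at 1005 nt. The 2 sites just outside it were in Marchf6, an endoplasmic reticulum ubiquitin ligase, at 993 nt, and in Thumpd1 at 987 nt.

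Isolation varied with coverage, though not in one direction, and the cause was not tested. Isolated sites made up 11.3% of the sites with 8 to 16 siNC reads, where the lists hold none under 15. They made up 6.39% of those with 16 to 32 reads, 3.61% with 32 to 64 and 2.64% with 64 to 128. With 128 to 256 reads the share was 3.07%, and with 256 to 512 it was 6.73%. Clustered sites were therefore weighted to the isolated ones over bins of siNC level (0.1 wide) and siNC reads (1 log2 unit wide), and are called matched where this was done. The median siNC level was 0.470 for isolated and 0.471 for matched clustered sites, and the median A and G reads were 28 and 29. The sites differed in their surroundings by construction, with a median of 2 called sites per gene for isolated and 13 for matched clustered sites. Sites of the siVirma and EPSC lists that are also in a siNC list are covered by the rule, so the spacing in those lists is given as a description. A siVirma site lay within 1000 nt of 8.24% of isolated sites, against 91.9% of matched clustered sites. An EPSC site lay that near to 4.24% of isolated sites, against 51.9% of matched clustered ones.

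Small RNAs and pseudogenes held larger shares of isolated than of matched clustered sites. By RefSeq biotype, matched on gene symbol, protein-coding genes held 1045 of them (83.6%), against 95.6% of matched clustered sites. Pseudogenes held 130 (10.4%), against 2.05% of matched clustered sites. All 8 sites in small nuclear RNA genes at these levels were isolated, as were 14 of the 41 sites in tRNA genes, and 19 were in lncRNAs. Reads of small RNAs and pseudogenes can come from near-identical copies, so which copy carries such a site is uncertain. In tRNA and small nuclear RNA genes the level is the share of unconverted A, and whether it is m6A was not tested.

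Where a gene had at least 3 called sites, isolated sites lay at its ends more often than between the others. Of 613 such sites, 289 (47.1%) were the site nearest to the 5′ end of the gene, 179 (29.2%) the one nearest to the 3′ end, and 145 lay between others. If every called site of these genes were as likely, each end would hold 15.7%. An end site has neighbours on one side only, and the order is along the genome, since exons, introns and untranslated regions were not assigned here.

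Fewer isolated than matched clustered sites were still called after Virma knockdown. Of the 1250 sites, 588 were in both siVirma lists, 318 in one of them and 344 (27.5%) in neither. siVirma replicate 1 held 63.1% of isolated sites, against 70.8% of matched clustered sites, and siVirma replicate 2 held 56.4%, against 61.9%. Both lists together held 47.0% of isolated sites, against 53.1% of matched clustered sites, a difference of -6.09 percentage points. Retention was lower for isolated sites in both siVirma libraries, and with no siNC counterpart for sites chosen in both siNC lists it has no test. A deficit of like size was present without knockdown. Isolated sites chosen in siNC replicate 1 alone were found in siNC replicate 2 in 64.4% of cases, against 74.1% of matched clustered sites, a difference of -9.64 points. The same sites differed by -9.99 and -8.76 points in the siVirma libraries. Chosen in siNC replicate 2 alone, they differed by -7.50 points in siNC replicate 1 and by -10.5 and -9.06 points in siVirma.

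Retention followed the control level and the depth in both kinds of site. Among isolated sites at 0.3 to 0.4, 31.9% stayed in both siVirma lists, against 30.1% of matched clustered ones, and at 0.8 to 0.9 the shares were 81.9% and 88.1%. The gap was widest at 0.6 to 0.7, where 51.9% of isolated and 71.9% of matched clustered sites stayed. By depth the gap did not keep its direction. With 64 to 128 siNC reads, 80.7% of isolated and 78.1% of matched clustered sites stayed, with 128 to 256 reads 84.0% and 82.7%, and with 256 to 512 reads 82.8% and 87.0%, the last over 29 isolated sites. With at least 50 reads in both siNC libraries the difference was 0.65 points. The lists hold no site under a level of 0.1 or 15 reads, so a site leaves them when either its level or its coverage drops.

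**Figure D1:**
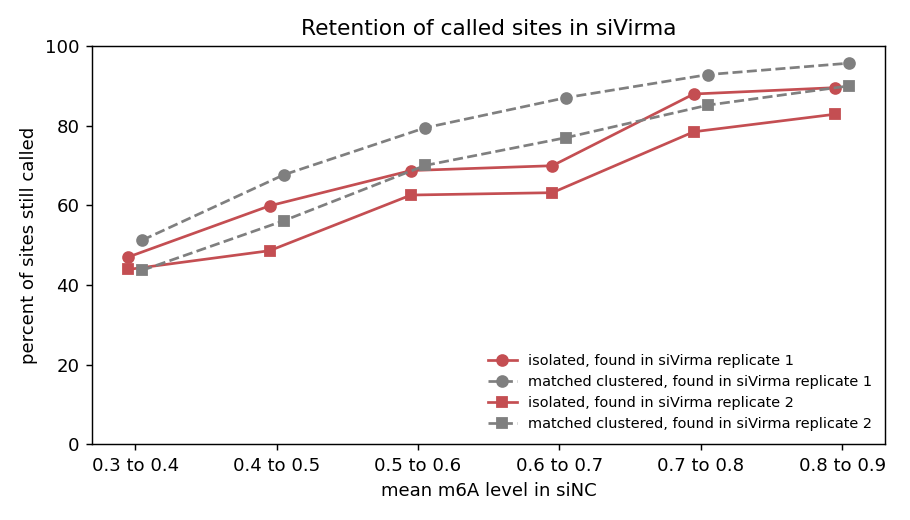
Percent of sites still called in each siVirma library (y axis) by mean siNC level (x axis), for isolated sites (red, solid lines) and clustered sites weighted to the same level and reads (grey, dashed lines); circles are siVirma replicate 1 and squares replicate 2. The share rises with the siNC level in both kinds, and isolated sites lie below matched clustered ones in each library at 0.4 and above.

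Leaving aside predicted genes and pseudogenes, the 6 deepest isolated sites that were in neither siVirma list all had mean control levels under 0.4. They were in Tceal9 (0.336 and 0.265 in siNC), Cbr3, which encodes a carbonyl reductase (0.402 and 0.312), and Dhx9, an RNA helicase (0.340 and 0.407). The other three were in Pi4k2a, a phosphatidylinositol kinase (0.343 and 0.293), Zfp217, a zinc finger gene (0.329 and 0.342), and Osgep, an enzyme of tRNA modification (0.314 and 0.291). Of the 344 sites in neither list, 140 (40.7%) lay in genes that still had a site in both siVirma lists. The gene coverage there was 1.08 times that in siNC at the median. Of the 3445 clustered sites in neither list, 87.0% lay in such genes. This contrast is largely fixed by the rule, since a gene that loses its only called site has none left. Of isolated sites 40.6% were the only called site of their gene, against 0.115% of matched clustered sites.

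At the 488 isolated sites in 479 genes listed in every TBLC library at 20 or more reads, the level was lower in siVirma. The other 762 isolated sites were not tested, 100 of them for reads alone. The median level over these sites was 0.241 and 0.244 in siVirma and 0.521 and 0.530 in siNC. For matched clustered sites it was 0.208 and 0.214 in siVirma and 0.522 and 0.519 in siNC. In each kind of site the siVirma and siNC medians did not overlap. The exact two-sided permutation test over libraries gave p = 0.33, which is its minimum with 2 libraries per group.

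A smaller share of isolated than of clustered sites passed the test for a lower level. edgeR's quasi-likelihood test on A and G reads, with Benjamini-Hochberg adjustment over all 20414 testable sites, called 363 of the 488 isolated sites lower in siVirma (74.4%) and 4 higher. The percentage called lower was 91.6 over all tested sites, 96.4 over those with a gene name at the same levels, and 95.4 over matched clustered sites; the percentage called higher was 0.147 over all. At 391 isolated sites (80.1%) both siVirma levels lay below both siNC levels, against 94.8 percent of all tested sites and 98.2% of matched clustered ones. The median change in the log2 odds of A to G was -2.03 over isolated sites, -2.28 over all tested sites and -2.05 over matched clustered sites. Of the 363, 45 lost the call when some library was left out, 27 of them without siVirma replicate 1.

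At the isolated sites with the largest falls, with at least 50 reads per library and outside predicted genes and pseudogenes, the level was lower in siVirma by more than 0.5. Ube2e3, a ubiquitin-conjugating enzyme gene with a single called site (chr2, position 78750482 of mm39, plus strand), had levels of 0.345 and 0.316 in siVirma and 0.888 and 0.886 in siNC. The log2 odds fell by 3.97 (SE 0.27, edgeR adjusted p = 5.2e-17), and 37.2% of the siNC level was left. Snrpb2, which encodes a protein of the U2 small nuclear ribonucleoprotein (chr2, position 142913498), had 0.254 and 0.238 in siVirma and 0.780 and 0.801 in siNC, on 355 to 461 reads. Both siVirma values lay far below both siNC values in each gene. Brf2, an initiation factor of RNA polymerase III, had 0.367 and 0.347 in siVirma and 0.891 and 0.90 in siNC. Plk1, a mitotic kinase, had 0.347 and 0.176 in siVirma and 0.734 and 0.816 in siNC, with the widest spread of these sites (SD 0.12 in siVirma). Tmem161a had 0.242 and 0.294 in siVirma and 0.821 and 0.727 in siNC, and Sec63, of the endoplasmic reticulum protein import machinery, had 0.367 and 0.327 in siVirma and 0.859 and 0.841 in siNC. All 6 held with each library left out, with adjusted p values of 0.000502 or less.

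Among the 6 most deeply read members outside predicted genes and pseudogenes, 5 fell. Of the passed-over sites of like depth, Tpt1-ps3 kept 36.1% of its level, and Eif4a-ps4 (97.3%) and Gm23971 (99.3%) were not called. Gsta4, a glutathione S-transferase (chr9, position 78116444, plus strand), had 0.195 and 0.200 in siVirma and 0.540 and 0.566 in siNC, on 949 to 1184 reads, and its log2 odds fell by 2.32 (SE 0.10, edgeR adjusted p = 1.6e-24). Skp1, the adaptor of SCF ubiquitin ligases, had 0.129 and 0.117 in siVirma and 0.338 and 0.357 in siNC. Ppp2ca, the catalytic subunit of protein phosphatase 2A, had 0.113 and 0.118 in siVirma and 0.400 and 0.384 in siNC. These genes kept 29.5% to 35.8% of the siNC level. Psmb1, a proteasome core subunit, had 0.156 and 0.159 in siVirma and 0.496 and 0.529 in siNC. Spp1, which encodes the secreted protein osteopontin (chr5, position 104582987, plus strand), fell less, with 0.256 and 0.245 in siVirma and 0.346 and 0.355 in siNC. It kept 71.5% of its level, and the change passed the test (log2 odds fell by 0.68, SE 0.09, edgeR adjusted p = 5.8e-09). TrnS1, a mitochondrial tRNA for serine (chrM, position 6905, minus strand), had 0.890 and 0.894 in siVirma and 0.897 and 0.888 in siNC, on 1967 to 2757 reads. Its values overlapped, and the test did not call it (edgeR adjusted p = 0.86).

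**Figure D2:**
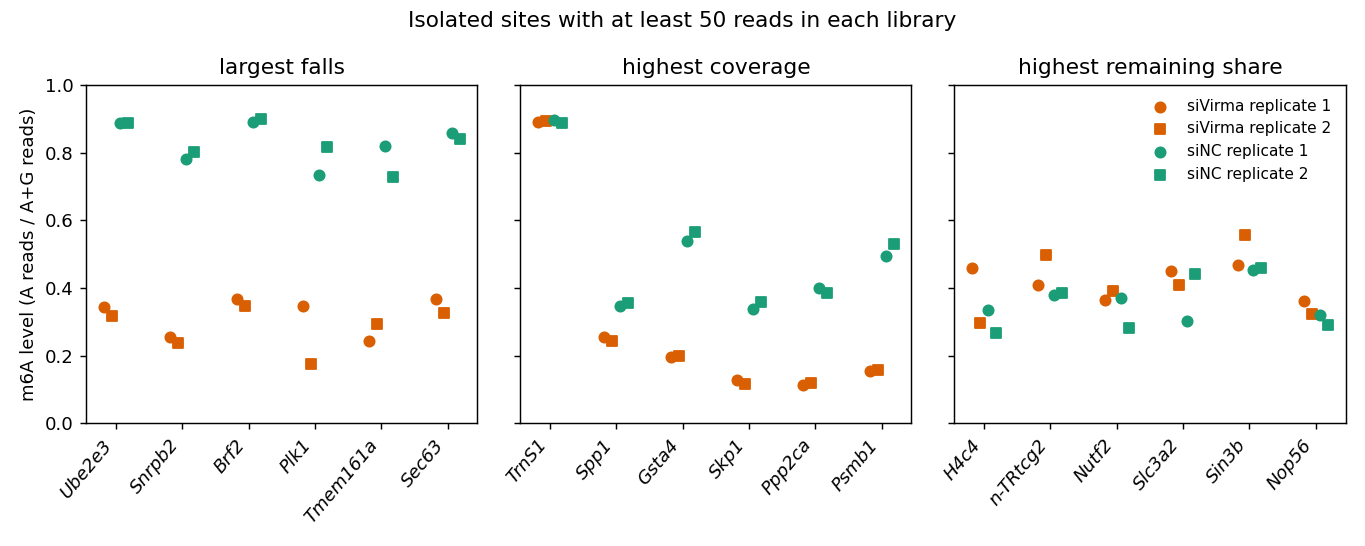
m6A level (y axis) of 18 isolated sites in each TBLC library, with siVirma (orange) left of siNC (green) for each gene and replicates 1 and 2 as circles and squares. The 6 sites with the largest falls (left) and 5 of the 6 deepest sites outside predicted genes and pseudogenes (middle) have both siVirma values below both siNC values, while TrnS1 and the 6 sites with the highest remaining share under the same exclusion (right) do not.

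The share of the siNC level that remained was nearly the same in the middle and differed in its upper part. Its median was 41.8% for isolated sites and 41.5% for matched clustered sites, with 42.9% against 40.7% in siVirma replicate 1 and 42.3% against 41.7% in replicate 2. The upper quartile was 66.3% for isolated sites and 49.4% for matched clustered ones, and 56 of the 488 isolated sites had a share above 100%. The direction of the difference changed with the control level. At 0.3 to 0.4 isolated sites kept 58.5%, against 41.8% for matched clustered sites, and at 0.4 to 0.5 they kept 43.7% against 39.4%. At 0.6 to 0.7 they kept 35.4% against 40.6%, and at 0.8 to 0.9 they kept 44.8% against 49.7%. A site that falls under the minimum level of the lists has no share. This cuts off low shares most where the siNC level is low, in both kinds of site. The median siVirma level of isolated sites was above that of matched clustered sites by 0.0316 ± 0.0033 (SD, n = 2), while the same difference in siNC was 0.0048 ± 0.0084 (SD, n = 2; exact permutation p = 0.33). No test over sites was made, since sites of 1 library are not replicates. Counting all 1250 sites, with uncalled ones as not keeping their level, 14.3% of isolated and 9.32% of matched clustered sites kept at least 0.5 of the siNC level in both siVirma libraries. This difference of 5.0 points was 2.34 in siVirma replicate 1 alone, 2.10 in replicate 2 alone, 1.38 when neighbours had to be in both siNC lists and 13.8 with at least 50 siNC reads.

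By distance to the nearest site, the median remaining share ran between 39.2% and 43.0%. Weighted to the same levels and reads, it was 42.1% for sites with a neighbour within 10 nt, 41.9% at 11 to 50 nt, 40.8% at 51 to 200 nt and 40.5% beyond 200 and up to 1000 nt. It was 39.2% for isolated sites up to 5000 nt and 43.0% for those farther away. In the 149 genes with both kinds of tested site, isolated sites kept more than the gene's clustered sites in 77 and less in 72, with a median difference of 1.46 points. Their siNC levels were not equal, at a median of 0.479 for isolated and 0.624 for clustered sites, so this comparison within genes is not matched on level.

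The remaining shares of isolated sites fell into a main group around 30% to 50% and a second one around 80% to 120%. Between them, 9 sites lay at 70% to 80%, with 16 at 60% to 70% and 21 at 80% to 90%. A limit of 0.8 of the siNC level, in each siVirma library, was set after these values were seen. It held for 89 of the 488 isolated sites (18.2%), against 0.939% of matched clustered sites, 5.54 percent of all tested sites and 1.40 percent of those with a gene name at the same levels. These are shares of tested sites, so sites that fell out of a siVirma list are not counted in either kind. At a siNC level of 0.3 to 0.4, 133 of 417 isolated sites were in both siVirma lists. At 0.8 to 0.9, 86 of 105 were. Each of the 89 was in a gene of its own. The siVirma libraries gave much the same sites. Of the 101 isolated sites that kept this share in siVirma replicate 1, 89 also did in replicate 2, and of the 105 in replicate 2, 89 also did in replicate 1. Of clustered sites, 125 of 229 and 125 of 289 did so. The median share in the siVirma library not used to choose was 100.1% and 99.2% for isolated sites, and 81.2% and 75.9% for clustered sites. Shares in both siVirma libraries are divided by the same mean siNC level, so they are not independent. The test called 1 of the 89 lower (Mt2, a metallothionein, at 82.6%), and it called 362 of the other 399 lower. The 89 were chosen on the same reads, so the choice largely fixes this contrast.

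**Figure D3:**
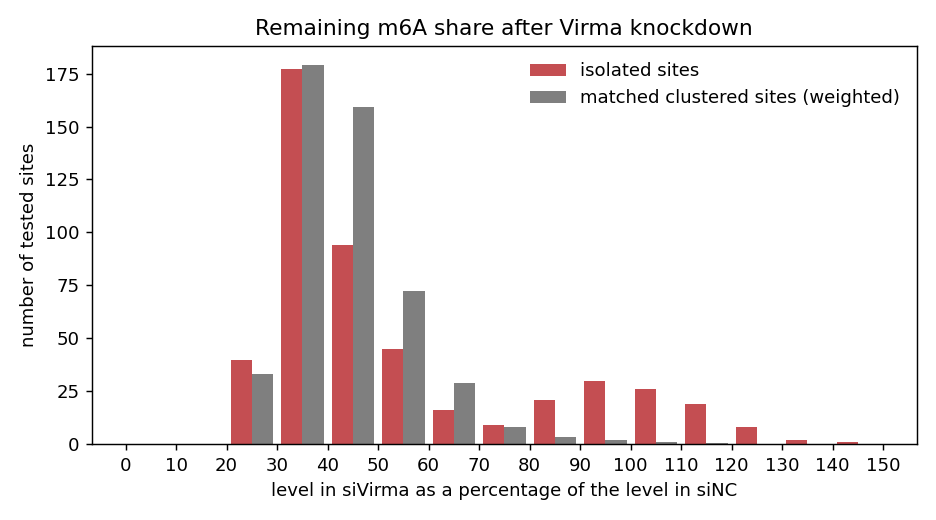
Number of tested sites (y axis) by the siVirma level as a percentage of the siNC level, in steps of 10 (x axis), for 488 isolated sites (red) and clustered sites weighted to the same number (grey). Both kinds have their highest bar at 30% to 40%, and isolated sites have a second group from 80% to 130% where matched clustered sites are few.

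All 6 tested small nuclear RNA sites and 8 of 9 tested tRNA sites were among the 89. Whether the unconverted adenosine at these sites is m6A was not tested. The small nuclear RNA site with the most siVirma reads, in Gm23971 (chr11, position 101536727, minus strand), had 0.859 and 0.861 in siVirma and 0.877 and 0.855 in siNC, on 602 to 841 reads. This site was named after its values were seen. The tRNA n-TRtcg2, an arginine tRNA, had 0.408 and 0.497 in siVirma and 0.379 and 0.386 in siNC, and its change did not pass the test (edgeR adjusted p = 0.095). Of tested pseudogene sites 15 of 67 were among the 89, and of lncRNA sites 3 of 7.

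Protein-coding genes held 55 of the 89 sites, and these were 14.3% of the 384 tested, against 0.656% of matched clustered sites in protein-coding genes. Their siNC levels were low for the range, with 47 of the 55 under 0.5. At low siNC levels a site that fell far could leave the siVirma lists and was then not tested. The median level of the 55 was 0.393 and 0.405 in the siVirma libraries, against 0.380 and 0.381 in the siNC libraries. They lay in genes of high coverage, with a median siNC gene coverage of 137, against 43.7 for the other tested protein-coding isolated sites. The reads at the sites themselves were similar, at medians of 48.5 and 44.5.

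Of the 6 members with the highest remaining share and at least 50 reads per library, outside predicted genes and pseudogenes, 3 had values that overlapped between groups. H4c4, a histone H4 gene, had 0.458 and 0.297 in siVirma and 0.336 and 0.266 in siNC. Nutf2, the importer of Ran into the nucleus, had 0.366 and 0.391 in siVirma and 0.370 and 0.281 in siNC. Slc3a2, the heavy chain of amino acid transporters, had 0.451 and 0.407 in siVirma and 0.303 and 0.441 in siNC. In 3 others both siVirma values lay above both siNC values, and none passed the test: n-TRtcg2 above, Sin3b, a scaffold of histone deacetylase complexes, with 0.468 and 0.557 in siVirma and 0.452 and 0.459 in siNC, and Nop56, a core protein of box C/D small nucleolar RNPs, with 0.361 and 0.324 in siVirma and 0.321 and 0.291 in siNC. Their adjusted p values ran up to 0.459 by edgeR. Histone H4 genes are near-identical, so the copy behind H4c4 is uncertain.

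The 89 sites were unevenly placed along their genes. Of tested isolated sites that were the 5′-most called site of their gene, 42 of 136 (30.9%) kept at least 0.8 of the siNC level. This was so for 2 of 56 sites between others and for 0 of 84 sites at the 3′ end. Of tested sites that were the only one of their gene, 45 of 212 (21.2%) kept it. In protein-coding genes alone the counts were 39 of 128, 2 of 51, 0 of 82 and 14 of 123. Clustered sites at the 5′ end of their gene kept it in 31 of 1047 cases (2.96%), or 5.33% when weighted to the isolated 5′ sites, those between others in 66 of 12520 (0.527%), and those at the 3′ end in 23 of 1181 (1.95%). The few clustered sites that were the only one of their gene, beside a site of another name, kept it in 5 of 15 cases (33.3%). Weighted to the isolated sole sites, this was 17.5%, against 27 of the 105 isolated sole sites with a clustered counterpart (25.7%). The counts of end sites above also take genes with fewer than 3 called sites. In genes with at least 3, tested isolated sites numbered 122 at the 5′ end, 56 between others and 52 at the 3′ end. Their median remaining shares were 50.7%, 37.9% and 38.7%, against 41.1% to 41.9% for the clustered sites matched to each. Tested or not, isolated sites in these genes numbered 289, 145 and 179 in the same order. Of these, 50.5%, 46.2% and 37.4% stayed in both siVirma lists, against 48.2%, 51.4% and 50.8% for the clustered sites matched to each.

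**Figure D4:**
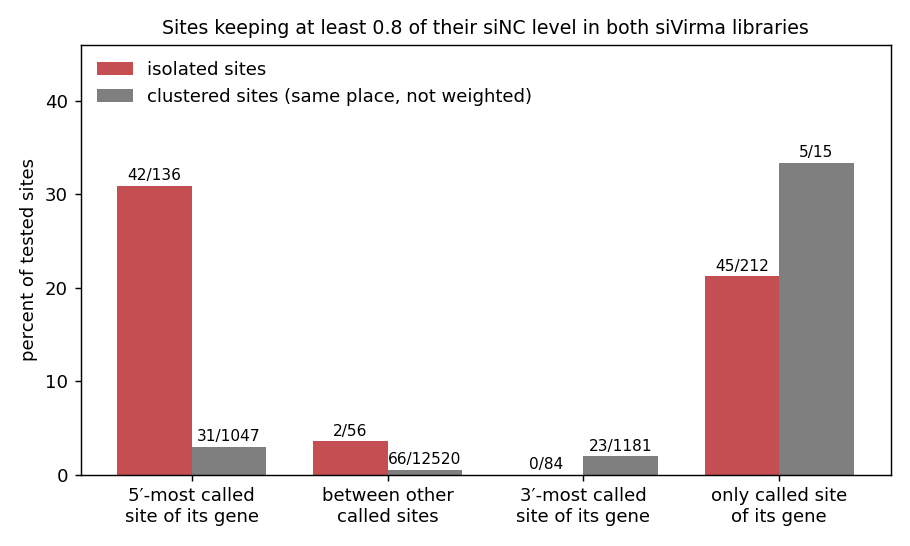
Percent of tested sites that kept at least 0.8 of their siNC level in both siVirma libraries (y axis), by place among the called sites of the gene (x axis), for isolated sites (red) and clustered sites at the same place without weighting (grey); the labels give counts. Isolated sites at the 5′ end (42 of 136) and sole sites (45 of 212) have high shares, sites between others and at the 3′ end have 2 of 56 and 0 of 84, and clustered sole sites have 5 of 15.

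In genes of the 89, clustered sites kept less of their level than the isolated site, which was chosen for keeping it. Whether they share a transcript with the isolated site was not assigned. In 28 genes a site of the 89 could be set beside tested clustered sites. The isolated site kept a median of 106% of its level, and the clustered sites kept 38.9%. It was above every clustered site in all 28 genes, and it was the 5′-most site in 26. The choice of the 89 largely fixes both the first count and the gap between the medians. The clustered sites here were not matched on siNC level. Over the 149 genes with both kinds of tested site, taken whatever the share kept, the isolated site kept more in 77 and less in 72. The median difference there was 1.46 points. Nanog, a core factor of naive pluripotency (chr6, position 122684553, plus strand), had 0.348 and 0.346 in siVirma and 0.341 and 0.348 in siNC at its isolated site, on 205 to 358 reads. These values lay within 0.01 of each other (edgeR adjusted p = 0.92), and the tested clustered site of Nanog kept 44.6%. Ctnnb1, which encodes β-catenin of the Wnt pathway, had 0.464 and 0.435 in siVirma and 0.380 and 0.537 in siNC (98.1% left), and its 2 tested clustered sites kept 38.2% at the median. The next genes were named after their values were seen. Actb, the gene of cytoplasmic β-actin, had 0.481 and 0.558 in siVirma and 0.515 and 0.472 in siNC (105% left), against 36.5% at its tested clustered site. Slc2a1, a glucose transporter, had 0.391 and 0.407 in siVirma and 0.393 and 0.551 in siNC (84.5% left), against 42.0% for its 3 tested clustered sites. In these genes the siVirma and siNC values of the isolated site overlapped.

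Of the isolated sites, 4 were called higher in siVirma, and each lost the call when some library was left out. Gab1, a docking protein of receptor tyrosine kinases, had 0.512 and 0.455 in siVirma and 0.370 and 0.286 in siNC (log2 odds change 0.94, SE 0.44, edgeR adjusted p = 0.044). It was the 5′-most of 23 called sites, and its 9 tested clustered sites kept 34.5% at the median. Without siVirma replicate 1 its adjusted p was 0.23, without siNC replicate 2 it was 0.22 and without siVirma replicate 2 it was 0.073. Rps12-ps19, a ribosomal protein pseudogene, had 0.340 and 0.398 in siVirma and 0.299 and 0.320 in siNC (edgeR adjusted p = 0.037). The lysine tRNA n-TKctt16 had 0.973 and 0.976 in siVirma and 0.913 and 0.848 in siNC (edgeR adjusted p = 0.027). The predicted gene Gm10313 had 0.690 and 0.719 in siVirma and 0.500 and 0.536 in siNC (edgeR adjusted p = 0.036). Without some library the adjusted p reached 0.34 for Rps12-ps19 (siVirma replicate 2; also lost without either siNC library), 0.15 for n-TKctt16 (siNC replicate 2; also without either siVirma library) and 0.14 for Gm10313 (siNC replicate 1; also lost without each of the other three).

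The share of sites that were isolated varied between functional gene lists. Of the sites at these levels, 1 of 70 in the m6A writer complex was isolated, 2 of 142 in naive pluripotency genes, 0 of 32 in the 2-cell stage program, 2 of 111 in FGF-ERK signalling and 5 of 161 in Polycomb and chromatin regulators. The counts were 5 of 13 for oxidative phosphorylation, 5 of 27 for the proteasome and 9 of 133 for the mitochondrial ribosome, against 4.70% over all genes. By the rule this share falls as sites per gene rise. By genes, 1 of 9, 2 of 20, 0 of 12, 2 of 24 and 5 of 27 held an isolated site in the lists up to Polycomb, in the same order. For oxidative phosphorylation, the proteasome and the mitochondrial ribosome 5 of 8, 5 of 16 and 9 of 53 did, against 16.8% over all genes. The writer site was in Zc3h13, a subunit beside VIRMA, with 0.370 and 0.250 in siVirma and 0.897 and 0.850 in siNC (log2 odds fell by 3.91, SE 0.63, edgeR adjusted p = 4.1e-07). The m6A reader gene Ythdf1 had 0.133 and 0.105 in siVirma and 0.336 and 0.381 in siNC and was called lower. Both sites lay in genes with many called sites, 17 in Zc3h13 and 24 in Ythdf1.

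The counts called lower in single lists below stand beside 74.4% of isolated sites and 91.6 percent of all tested sites. Of the 7 tested isolated sites of the mitochondrial ribosome list 6 were called lower, and none in that list was in neither siVirma list. Mrpl34 had 0.281 and 0.296 in siVirma and 0.732 and 0.818 in siNC, and Mrpl11 had 0.192 and 0.198 in siVirma and 0.482 and 0.585 in siNC. The site in Mrps28 was among the 89 that kept their level. In the p53 and apoptosis list both tested sites were called lower. The apoptosis effector Bax had 0.222 and 0.213 in siVirma and 0.706 and 0.681 in siNC, on 489 to 779 reads, and Ccng1, a p53 target, had 0.103 and 0.110 in siVirma and 0.343 and 0.355 in siNC. Both tested translation factor sites fell, with Eif3l, a subunit of initiation factor 3, at 0.216 and 0.198 in siVirma and 0.683 and 0.667 in siNC.

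In other lists some isolated sites were called lower and others were not called. Of 3 tested oxidative phosphorylation sites 1 was called lower, the median remaining share was 91.5%, and the site in Ndufs4 was among the 89. In FGF-ERK signalling 1 of 2 tested sites was called lower. The 1 tested site of the aminoacyl-tRNA synthetases, in Cars, was not called and kept 112%. Of 4 tested splicing factor sites 3 were called lower, among them Sf3a2 of the U2 complex, with 0.111 and 0.113 in siVirma and 0.438 and 0.382 in siNC, while the site in the splicing factor gene Srsf7 kept its level. In the proteasome list Psmb1 fell, as given above, and Psmb2 had 0.381 and 0.378 in siVirma and 0.421 and 0.358 in siNC (edgeR adjusted p = 0.79). In the Wnt list Gsk3b, a kinase that marks β-catenin for degradation, had 0.154 and 0.179 in siVirma and 0.444 and 0.476 in siNC and was called lower, while Ctnnb1 was not. Cell cycle genes had 2 tested sites, both called lower: Plk1, and E2f1, a transcription factor, with 0.308 and 0.217 in siVirma and 0.471 and 0.476 in siNC. The call for E2f1 was lost without siVirma replicate 2 (adjusted p 0.17), siNC replicate 1 (0.10) or siNC replicate 2 (0.062) by edgeR. Cbx7 of the Polycomb list and Col6a2, a collagen of the feeder list, were called lower too, and Col6a2 had 160 and 123 reads in siVirma and 44 and 54 in siNC.

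Vps13b and Dop1a, with 3 isolated sites each, were shallowly read, at 15 to 25 reads per site in siNC, and none of their sites was tested. In Vps13b, which encodes a lipid transfer protein, 2 of the 3 sites were in both siVirma lists, at 0.238 and 0.364, and at 0.33 and 0.421. In Dop1a none was in both.

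In EPSC, 286 of the 1250 isolated sites (22.9%) were in the pooled table, against 24.6% of matched clustered sites. At the 143 with at least 20 sgCtrl reads the median pooled level in sgCtrl was 0.429, against 0.471 in TBLC siNC at the same sites. The level was lower in EPSC at 86 of them (60.1%) and higher at 57, against 74.8% lower among matched clustered sites. The median difference was -0.0308 for isolated and -0.0718 for matched clustered sites. EPSC values are 1 per group, pooled by the authors, and have no SD or test. The kind of cell, the dCas13b-FTO system and the pooled table differ together from TBLC siNC and cannot be told apart. Both kinds of site were chosen by their siNC level and not by their EPSC level. Among sites with at least 50 reads in sgCtrl and in each siNC library, outside predicted genes and pseudogenes, the largest differences downward were in Bcat1, a branched-chain amino acid transaminase (0.162 in EPSC sgCtrl, 0.384 and 0.384 in siNC), Bax (0.516 in EPSC sgCtrl), Lbr, the lamin B receptor (0.491 in EPSC sgCtrl, 0.613 and 0.687 in siNC), and Rpl22, a ribosomal protein (0.210 in EPSC sgCtrl, 0.318 and 0.344 in siNC). The largest upward under the same limits were in Tmsb10b, a thymosin (0.774 in EPSC sgCtrl, 0.649 and 0.619 in siNC), and Ckb, a creatine kinase (0.480 in EPSC sgCtrl, 0.355 and 0.350 in siNC). Slc25a4, the mitochondrial ADP/ATP carrier, had 0.806 in EPSC sgCtrl and 0.731 and 0.747 in siNC, and Prdx6b had 0.583 in EPSC sgCtrl and 0.575 and 0.485 in siNC.

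**Figure D5:**
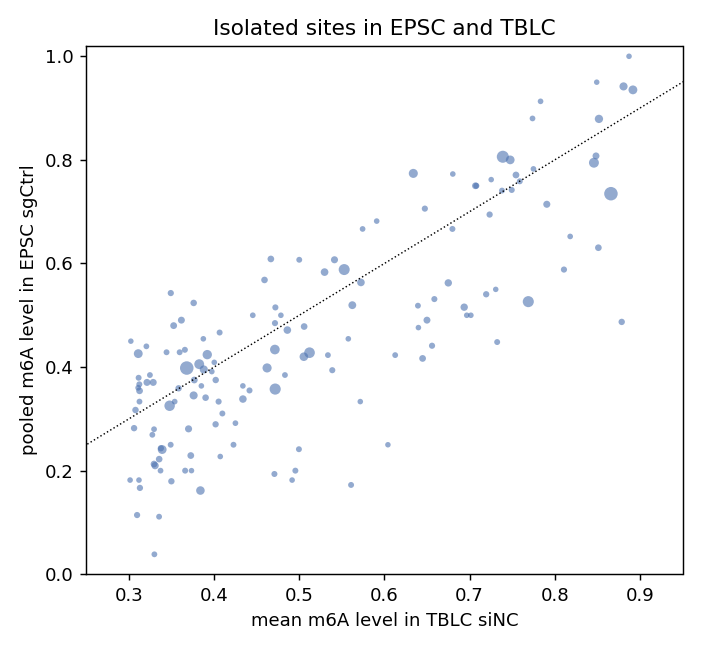
Pooled m6A level in EPSC sgCtrl (y axis) against the mean level in TBLC siNC (x axis) at the 143 isolated sites with at least 20 sgCtrl reads; larger points have more reads and the dotted line marks equal levels. More sites lie below the line (86) than above it (57).

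The guide against Gata6 was given with the same EPSC background. At the 130 isolated sites with at least 20 reads in both EPSC groups the median level was 0.464 in sgGata6 and 0.424 in sgCtrl, higher in sgGata6 at 71 and lower at 59. The median difference per site was 0.0118 for isolated and 0.0055 for matched clustered sites.

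Sites that kept their level in siVirma were seldom in the EPSC table. It held 15 of the 89 (16.9%), against 169 of the other 399 tested isolated sites (42.4%). In protein-coding genes it held 1 of 55 (1.82%), against 139 of 329 (42.2%). These groups were not matched on level, with a median siNC level of 0.375 for the 55 and 0.534 for the 329. Of the 15, 13 had at least 20 sgCtrl reads, with a median level of 0.531 in EPSC sgCtrl and 0.659 in siNC. The 15 include 5 small nuclear RNA sites, and 6 of the 9 tested tRNA sites were in the EPSC table. At such sites the level is the share of unconverted A, and whether it is m6A was not tested. The EPSC table lists called sites, so a site absent from it can be unmethylated, too shallow or not called for another reason, and which of these held was not tested.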

How the data were processed

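The libraries were made by GLORI from mRNA (per the labels' protocols). Coordinates are of mm39, per the submitters' processing notes; the aligner and the site caller were not given in the sources used here. The deposited lists give counts of A+G and A reads per called site, and a level that is the fraction A over A+G, per the file headers. They also give, per the file headers, gene coverage (a signal), the gene's conversion rate and the authors' p-value per site, which was used only to describe sites. Every listed site had at least 15 A+G reads, 5 A reads and a level of 0.1. EPSC coverage and A counts were deposited pooled over each group, so the planned per-library values became pooled ones.

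Members, lists and tests were chosen with earlier results of these data known. Sites with at least 20 reads in all 4 TBLC libraries were tested with edgeR 4.0.16 (limma 3.58.1, R 4.3.3) on A and G counts, with library terms and a group term for A reads, adjusted by Benjamini-Hochberg over all sites tested; the threshold was 0.05. The script was tested on simulated data. Summaries used Python 3.11.15, numpy 2.4.6 and pandas 2.3.3, and plots matplotlib 3.10.9. Samples were grouped by title. Named sites were the 6 largest falls, 6 highest remaining shares and 6 deepest (at least 50 reads per library), the 6 deepest in neither siVirma list, every rise, up to 2 per gene list, and the 4 largest EPSC differences each way (at least 50 reads in sgCtrl and both siNC). Predicted genes (Gm and Rik symbols) and pseudogenes (-ps symbols) were passed over except rises. Gene biotypes came from RefSeq (GRCm38.p6) by symbol; no coordinates were taken from it. Sequence and transcript region were not used here, because no mm39 genome was. No comparison of promoter sequences is given here. Of the 55 protein-coding genes with a site that kept its level, 43 (78.2%) had a promoter entry. PCR reads without molecular identifiers are not independent, so depth limits precision by counting error at least. Alternatives in window, matching, minimum reads, test and left-out libraries are given in the closing section.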

Additional observations from a re-analysis of the deposited data

How the results depend on the processing

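Differences below are isolated minus matched clustered sites. The rule gave 1672 isolated sites with a window of 500 nt and 1020 with 2000 nt, 2396 when neighbours had to be in both siNC lists, and 508 for sole sites of a gene. The retention difference of -6.09 points was -4.54 with 2000 nt, -7.97 with neighbours from both lists, -7.75 for sole sites, -18.8 without matching and -4.51 with finer bins. It turned to 0.65 points with at least 50 siNC reads, where the cause was not tested. Leaving out a siVirma library gave -5.49 to -7.65 points, for calls in 1 list in place of both. The siVirma level difference of 0.0316 was 0.0247 with 500 nt, 0.0363 with 2000 nt, 0.0155 with neighbours from both lists, 0.0247 when also matched on gene coverage, 0.0350 with no minimum of reads and 0.0240 to 0.0342 without each library. Without matching it turned to -0.0039, where clustered sites had higher siNC levels. The share keeping at least 0.5 of the siNC level differed by 5.0 points, and by 3.05 (500 nt), 6.64 (2000 nt), 1.38 (neighbours from both lists), 6.16 (sole sites), 3.23 (not matched), 5.22 (finer bins), 4.67 (gene coverage), 13.8 (at least 50 reads) and 2.10 to 2.34 with 1 siVirma library. The remaining share differed by 0.30 points, by 0.16 to 1.81 without each library, and by -0.25 to 1.04 under the other windows, neighbour lists, matchings, minimum reads and pooling.

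The 363 calls became 157 with at least 50 reads, where 203 sites were tested, and 360 to 438 without each library. The replicate block gave 362, limma 361 and Fisher's exact test on pooled reads 362. Same-numbered siVirma and siNC libraries did not deviate together (r = 0.0084 over 20414 sites), so the numbers were not taken as pairs. In alternatives chosen after seeing the data, the 18.2% that kept at least 0.8 of the siNC level in both siVirma libraries became 21.7% at 0.7 and 13.3% at 0.9. It was 21.2% with at least 50 reads, 17.0% with no minimum, 14.3% in protein-coding genes, 15.3% with 500 nt, 19.5% with 2000 nt and 20.7% to 21.5% with 1 siVirma library. The gene comparison gave -0.17 points with at least 3 clustered sites per gene, against 1.46. Of 1250 isolated sites 762 could not be tested, 100 of them for reads alone, and a site missing from a list has no level. The EPSC sgCtrl median of 0.429 was 0.444 with no minimum of reads and 0.476 with at least 50.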
